A study of Mus musculus with 6 samples.

Results

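The genes described here carry the interferon response and class I antigen presentation in the mouse kidney. They were taken by symbol from a list of 45 genes, and all 45 were found among the 21367 genes of the deposited table. By role they are transcription factors, sensors of foreign RNA, IFIT proteins, the OAS family, the ISG15 system with other antiviral effectors, the GBP and IRG GTPases, the class I antigen presentation pathway, and a mixed group of other interferon-stimulated genes. They were measured by RNA-seq in the left kidneys of 3 Ptpn6+/mev mice and 3 wild-type littermates, 1 library per mouse. Ptpn6+/mev mice, on a C57BL/6 background, are heterozygous in every cell for viable motheaten, a splice-site allele of *Ptpn6*, which encodes the phosphatase SHP-1. The labels call this genotype SHP1 knockdown. All 6 mice were 7 weeks old, had the right kidney removed and the left renal pedicle clamped for 34 min, and were killed after 24 h of reperfusion, so both groups had ischemia-reperfusion injury (IRI) and no uninjured kidney enters the comparison.

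Interferons are secreted proteins that bind paired receptors on nearly all cells. Type I interferons act through the kinases JAK1 and TYK2 to form a complex with STAT2 and IRF9, which binds the interferon-stimulated response element (ISRE), while interferon-gamma acts through JAK1 and JAK2 on genes with a gamma-activated site (GAS). The induced genes encode antiviral effectors, GTPases that attack vacuoles holding pathogens, and the proteasome subunits, transporters and class I molecules that show peptides to T cells. SHP-1 is known as a phosphatase of immune cells that removes phosphate from receptors and JAK kinases. In an injured kidney these genes can be expressed by tubular cells, endothelium and infiltrating leukocytes alike, and in whole tissue a smaller number of cells of one type cannot be told apart from less RNA per cell.

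Of the 45 genes, 35 had a promoter window in RefSeq, which runs from 250 bases before to 50 bases after the transcription start on GRCm38.p6. The 10 without a match were *Dhx58*, *Ifi27*, *Mx1*, *Mx2*, *Gbp6*, *Iigp1*, *Ly6e*, *Parp14*, *Usp18* and *Parp9*. The ISRE was searched on both strands as GAAA, any 2 bases, then GAAA, where neighbouring matches may overlap, and the GAS as TTCNNNGAA. An ISRE match was present for 18 of the 35 genes, and for 3.99% of all 27025 genes with a window. A GAS match was present for 9 of the 35 genes, and for 9.55% of all genes with a window. The stretches below are shown because they belong to genes whose values carry the account that follows. Each holds the 100 bases around the ISRE matches, which are in capitals, and reads 5′ to 3′ on the strand of the gene. A run of capitals longer than one match marks overlapping matches, and a match on the other strand reads TTTC, 2 bases, TTTC.
Ifit1 (chr19:34640749-34640848, plus strand): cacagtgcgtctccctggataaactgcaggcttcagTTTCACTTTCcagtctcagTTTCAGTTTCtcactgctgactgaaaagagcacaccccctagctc
Ifit3 (chr19:34583345-34583444, plus strand): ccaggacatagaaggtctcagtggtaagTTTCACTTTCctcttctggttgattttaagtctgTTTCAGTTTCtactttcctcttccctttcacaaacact
Isg15 (chr4:156200836-156200935, minus strand): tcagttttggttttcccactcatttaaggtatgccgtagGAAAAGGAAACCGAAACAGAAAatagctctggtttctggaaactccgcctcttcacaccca
Oas1a (chr5:120907526-120907625, minus strand): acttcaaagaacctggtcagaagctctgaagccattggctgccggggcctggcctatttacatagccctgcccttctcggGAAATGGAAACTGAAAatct
Irgm1 (chr11:48871421-48871520, minus strand): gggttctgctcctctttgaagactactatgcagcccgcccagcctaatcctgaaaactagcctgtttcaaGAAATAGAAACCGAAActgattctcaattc
Igtp (chr11:58199456-58199555, plus strand): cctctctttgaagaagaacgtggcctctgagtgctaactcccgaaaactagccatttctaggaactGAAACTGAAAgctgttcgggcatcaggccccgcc
B2m (chr2:122147503-122147602, plus strand): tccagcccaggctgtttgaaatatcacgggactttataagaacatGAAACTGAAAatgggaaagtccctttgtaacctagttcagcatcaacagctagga
Gbp7 (chr3:142530236-142530335, plus strand): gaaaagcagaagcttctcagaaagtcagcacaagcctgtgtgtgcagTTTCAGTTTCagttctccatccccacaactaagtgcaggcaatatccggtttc

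The neighbouring gene *Ifit3b* has a stretch at chr19:34607741-34607840 that is identical, base for base, to the one printed for *Ifit3*. *Tap1* and *Psmb9*, a peptide transporter and a proteasome subunit read in opposite directions, have overlapping windows at chr17:34187306-34187605 and chr17:34187281-34187580. Of the 18 genes with an ISRE match, 9 had more than 1. The median log2 fold change, Ptpn6+/mev minus wild-type, was -0.62 for the genes with an ISRE match and -0.52 for those without, and -0.44 with a GAS match and -0.58 without, a description over few genes. A match says only that these letters are present, and no binding was measured here.

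Levels are given as FPKM, fragment counts scaled to transcript length and library size, as the authors deposited them. Comparisons used the deposited counts with edgeR's quasi-likelihood test, and the FDR is the Benjamini-Hochberg adjusted p over the 13036 genes that passed edgeR's filter on low counts. Total counts ranged from 10271590 to 12361745 per library. The kidney markers *Umod* and *Aqp2* were high in every library, with *Umod* between 1628 and 2556 FPKM and *Aqp2* at 431 FPKM in wild-type replicate 2 and between 122 and 228 FPKM in the other mice. Wild-type replicate 2 stood apart from the other libraries: its TMM factor was 0.929 against 0.994 to 1.03 elsewhere, and leaving it out raised the genes called across the whole table from 18 to 237. For this reason many of the results below are also given without it. *Ptpn6* itself had a log2 fold change of -0.19 (standard error 0.17, FDR = 0.715), and the splice-site allele need not alter the count of the transcript. Wild-type replicate 2 had the lowest *Ptpn6* level of the 6 mice, at 10.9 FPKM against 11.85 to 17.5 FPKM, and without it the log2 fold change was -0.34 (unadjusted p = 0.0211, FDR = 0.201, edgeR). Without wild-type replicate 1, the highest, it was -0.06.

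Most of the interferon genes had lower counts in the Ptpn6+/mev kidneys, but none passed the test, and the median difference was smaller without a single wild-type mouse. Of the 44 genes that passed the filter, 40 had a log2 fold change below 0 and 4 above 0 (*Oasl1*, *Rsad2*, *Gbp5* and *Ly6e*). Their median was -0.58, against -0.002 over all tested genes, of which 50.5% lay below 0. At an FDR under 0.05 the quasi-likelihood test called 0 of the 44, and 0.138% of all tested genes. At an unadjusted p under 0.05, 14 of the 44 were lower in Ptpn6+/mev kidneys and 0 were higher, against 6.71% and 5.53% of all tested genes. The FPKM of the groups did not overlap for 15 genes that were lower in each Ptpn6+/mev mouse (6.38% of all tested genes) and for 1 gene, *Oasl1*, that was higher (14.0% of all tested genes). The remaining 28 overlapped. The edgeR exact test and DESeq2 each called 1 of the 44, *Gbp6*, while calling 2.99% and 2.97% of all tested genes.

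The levels followed the individual mouse. Wild-type replicate 2 had the highest FPKM for 36 of the 44 genes, and for 17.3% of all tested genes. Ptpn6+/mev replicate 1 had the lowest for 28 of the 44, and for 13.3% of all tested genes. The FPKM in wild-type replicate 2 was a median of 1.53 times the mean of wild-type replicates 1 and 3 over these genes, against 0.909 over all tested genes, and exceeded 1.5 times that mean for 23 of them (7.58% of all tested genes). On the log2 CPM scale, relative to each gene's mean over the 6 mice, the median position of the 44 genes was -0.56, -0.19 and 0.002 in Ptpn6+/mev replicates 1 to 3. The wild-type positions, in the same order, were 0.05, 0.75 and -0.08. Thus Ptpn6+/mev replicate 3 and wild-type replicates 1 and 3 lay close together, Ptpn6+/mev replicate 2 lay somewhat below them, and wild-type replicate 2 and Ptpn6+/mev replicate 1 were the farthest away, in opposite directions.

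**Figure D1:**
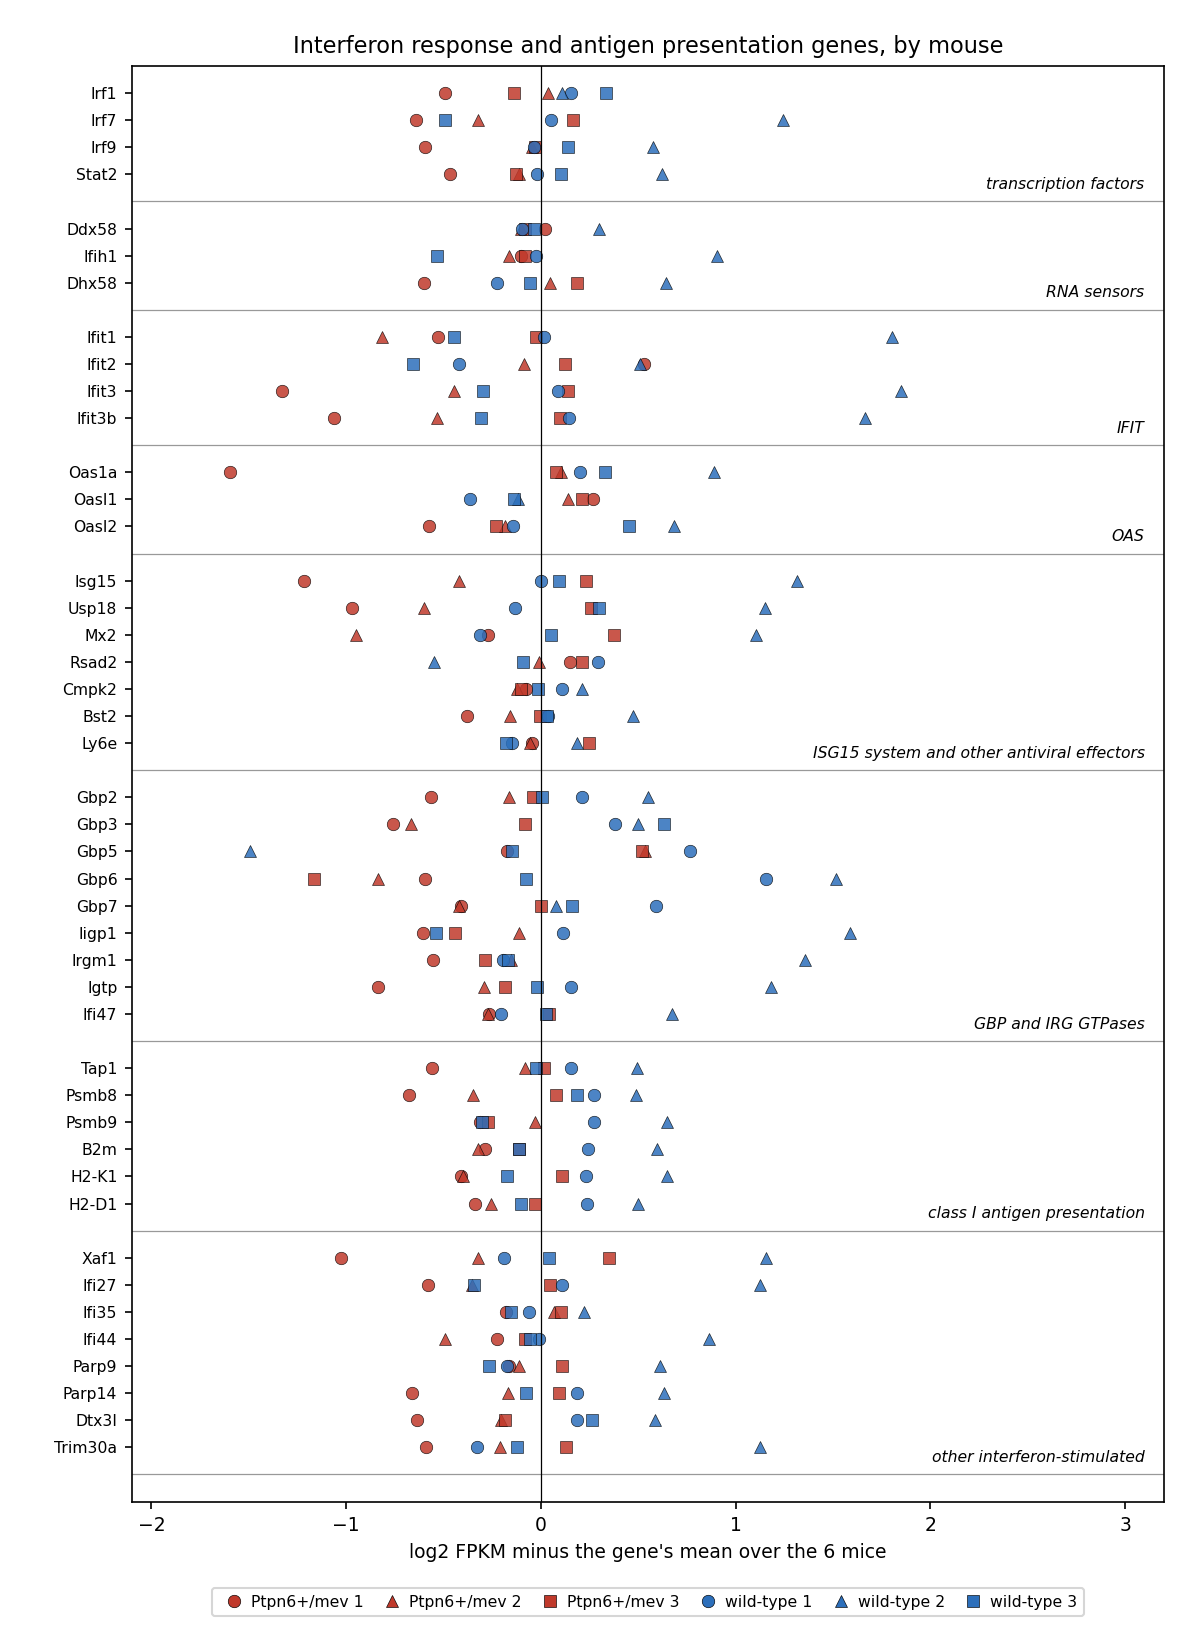
Log2 FPKM of each gene in each mouse minus the gene's mean over the 6 mice (horizontal axis), with genes grouped by role on the vertical axis, Ptpn6+/mev mice in red and wild-type mice in blue, and marker shape giving the replicate. *Mx1*, which was below the filter, is left out, and wild-type replicate 2 (blue triangles) is the highest point for 36 of the 44 genes.

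With wild-type replicate 2 left out, the median log2 fold change of the 44 genes was -0.26, and 36 of them were below 0, against 50.8% of all genes tested in those 5 libraries. None was called, against 1.8% of all genes. At an unadjusted p under 0.05, 8 were lower and 2 were higher, against 8.89% and 8.36% of all genes. The 8 were *Irf1*, *Stat2*, *Gbp6*, *Gbp7*, *Igtp*, *B2m*, *H2-D1* and *Dtx3l*, and the 2 were *Ifit2* and *Oasl1*. The count of 14 lower genes became 3 without Ptpn6+/mev replicate 1, 6 without Ptpn6+/mev replicate 2 and 25 without wild-type replicate 3. The share of all tested genes at that p was not computed for these fits. Whether the counts changed more than that share is therefore not known. Without wild-type replicate 3, *Gbp6* was called (FDR = 0.0465) in a fit that called 0.508% of all genes. With both wild-type replicate 2 and Ptpn6+/mev replicate 1 left out, a choice made after the data were seen, the median was -0.13 and 31 of the 44 genes were below 0.

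**Figure D2:**
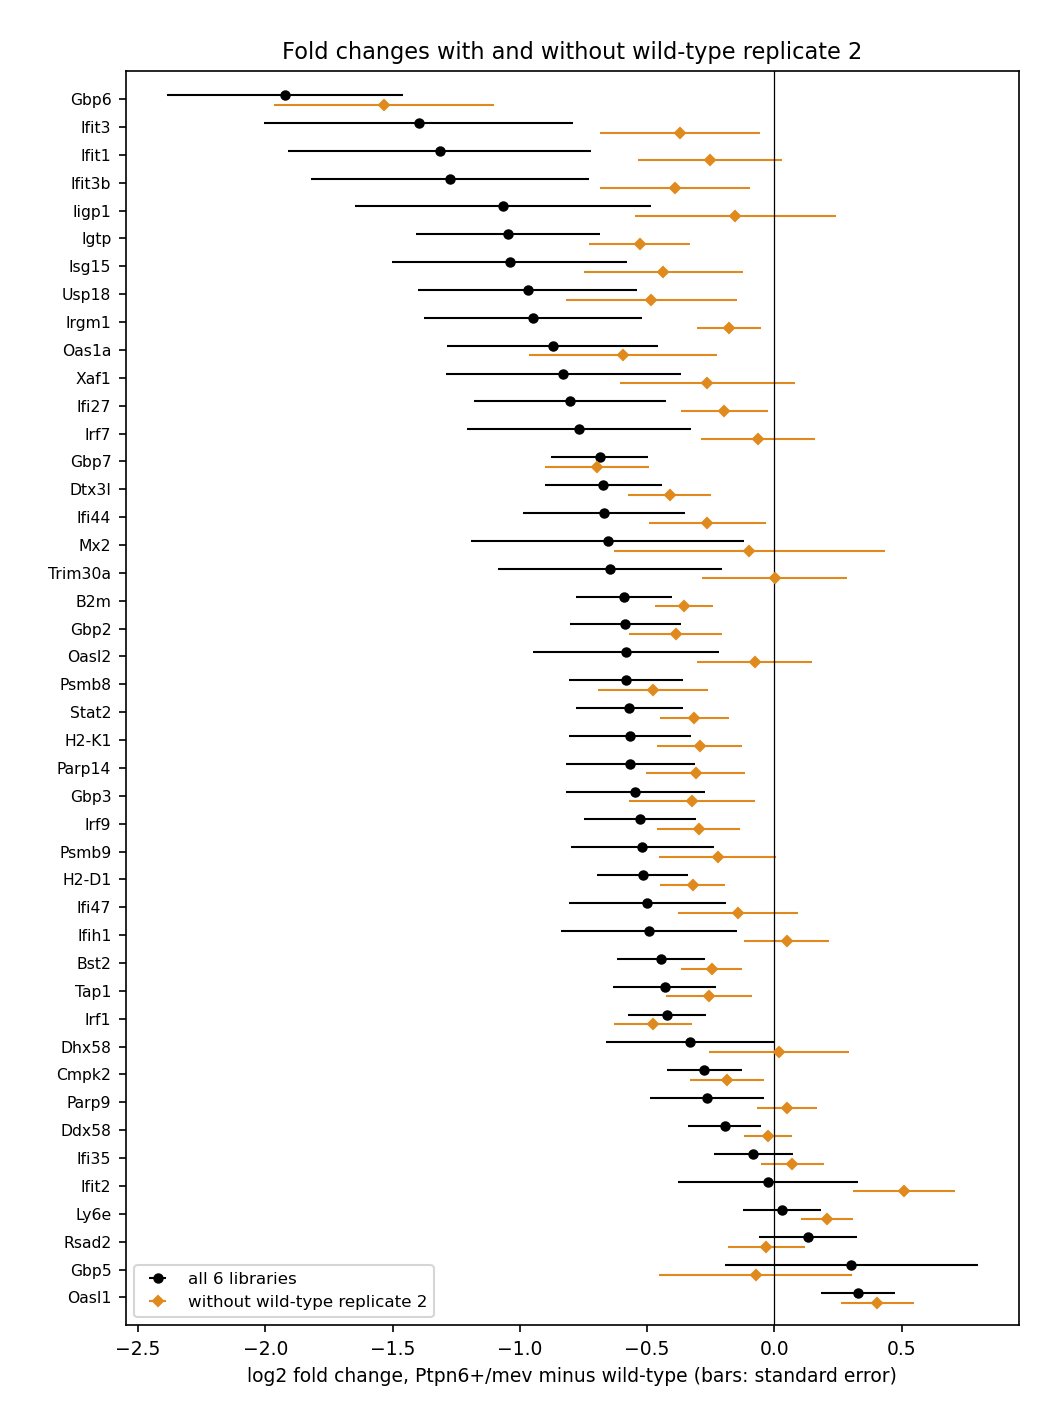
Log2 fold change (Ptpn6+/mev minus wild-type, horizontal axis) of the 44 tested genes with all 6 libraries (black circles) and without wild-type replicate 2 (orange diamonds), with bars for the standard error of the edgeR fit. For 39 of the 44 genes the value without that library was the smaller in size.

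Among the transcription factors, IRF9 and STAT2 belong to the complex that binds the ISRE, IRF7 amplifies interferon production, and IRF1 drives many interferon-gamma targets and class I genes. All 4 had a log2 fold change below 0. *Irf1* (chr11:53770014-53778374) had 11.2, 16.2 and 14.3 FPKM in Ptpn6+/mev replicates 1 to 3 and 17.6, 17.0 and 19.9 FPKM in wild-type replicates 1 to 3. Each wild-type mouse was above every Ptpn6+/mev mouse, and wild-type replicate 2 was the lowest of the 3. For *Irf1* edgeR gave a log2 fold change of -0.42 (standard error 0.15, FDR = 0.320), and -0.48 without wild-type replicate 2. *Stat2* gave 4.84, 6.20 and 6.13 FPKM in Ptpn6+/mev mice and 6.62, 10.3 and 7.21 FPKM in wild-type mice. Here too the groups did not overlap, and the log2 fold change of -0.57 (FDR = 0.321) became -0.31 without wild-type replicate 2. *Irf9* lay between 8.42 and 12.45 FPKM in Ptpn6+/mev mice and between 12.44 and 19.0 FPKM in wild-type mice, with a log2 fold change of -0.53 (FDR = 0.380), or -0.30 without wild-type replicate 2.

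*Irf7* (chr7:141262706-141266481) had the highest mean FPKM of the 4 over the 6 mice, a place it owed to wild-type replicate 2. It had 11.1, 13.8 and 19.4 FPKM in Ptpn6+/mev replicates 1 to 3, and 18.0, 40.9 and 12.3 FPKM in wild-type replicates 1 to 3. Wild-type replicate 2 exceeded the other 5 mice, which overlapped between the groups. The log2 fold change of *Irf7* was -0.77 (standard error 0.44, FDR = 0.553), -0.06 without wild-type replicate 2, and 0.11 with Ptpn6+/mev replicate 1 left out as well.

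The RNA sensors RIG-I (*Ddx58*), MDA5 (*Ifih1*) and LGP2 (*Dhx58*) recognise double-stranded RNA in the cytoplasm, and none of the 3 had an unadjusted p under 0.05. *Ddx58* (chr4:40203773-40239828) had 13.8, 12.6 and 12.8 FPKM in Ptpn6+/mev mice and 12.7, 16.7 and 13.2 FPKM in wild-type mice, so that only wild-type replicate 2 lay outside a narrow band. The fit put *Ddx58* at a log2 fold change of -0.20 (standard error 0.14, FDR = 0.654), and -0.03 without wild-type replicate 2. *Ifih1* gave 2.42, 2.32 and 2.45 FPKM in Ptpn6+/mev mice against 2.55, 4.86 and 1.79 FPKM in wild-type mice, which took in the Ptpn6+/mev range on both sides. The log2 fold changes of *Ifih1* and *Dhx58* were -0.49 and -0.33 with all libraries, and 0.05 and 0.02 without wild-type replicate 2.

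IFIT proteins bind viral RNA and block its translation, and their genes lie side by side on chromosome 19. The family showed the widest spread between wild-type mice: the median ratio of wild-type replicate 2 to the mean of the other wild-type mice was 3.58. *Ifit3* (chr19:34583531-34588731) had 9.51, 17.5 and 26.3 FPKM in Ptpn6+/mev replicates 1 to 3, and 25.4, 86.2 and 19.5 FPKM in wild-type replicates 1 to 3. Wild-type replicate 2 was far above the rest, Ptpn6+/mev replicate 1 was the lowest, and the other 4 mice overlapped. The group means were 17.8 ± 8.42 FPKM (SD, n = 3) and 43.7 ± 36.9 FPKM (SD, n = 3). *Ifit3* thus had a log2 fold change of -1.40 (standard error 0.61, FDR = 0.409), and -0.37 without wild-type replicate 2. *Ifit3b* (chr19:34607970-34613401), with 2.96, 4.28 and 6.61 FPKM in Ptpn6+/mev mice and 6.83, 19.6 and 5.00 FPKM in wild-type mice, had the same order of mice within each group. That left *Ifit3b* with a log2 fold change of -1.28 (FDR = 0.401), and -0.39 without wild-type replicate 2. The 2 genes share sequence: 41.1% of the 75-base stretches of the *Ifit3* transcript also occur in *Ifit3b*, and 35.7% in the other direction, so the split of reads between them is uncertain.

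*Ifit1* was at a low level in all mice but one, with 1.72, 1.41 and 2.44 FPKM in Ptpn6+/mev mice and 2.51, 8.65 and 1.82 FPKM in wild-type mice. With all libraries the fit gave -1.31 on the log2 scale (FDR = 0.429), and -0.25 without wild-type replicate 2. *Ifit2* did not follow the others: it had 4.81, 3.14 and 3.63 FPKM in Ptpn6+/mev mice and 2.49, 4.73 and 2.11 FPKM in wild-type mice, with Ptpn6+/mev replicate 1 the highest of all. The log2 fold change of *Ifit2* was -0.03 (FDR = 0.988), and 0.51 without wild-type replicate 2 (unadjusted p = 0.0301, FDR = 0.234, edgeR).

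OAS proteins make the second messenger that activates RNase L, and OASL1 in the mouse is known to restrain the translation of *Irf7*. *Oasl1* (chr5:114923240-114937915) was the only gene of the 44 that was higher in Ptpn6+/mev mice with groups that did not overlap. It had 8.36, 7.65 and 8.03 FPKM in Ptpn6+/mev replicates 1 to 3, and 5.40, 6.41 and 6.32 FPKM in wild-type replicates 1 to 3. Each Ptpn6+/mev mouse was above every wild-type mouse, with means of 8.01 ± 0.355 FPKM (SD, n = 3) and 6.04 ± 0.559 FPKM (SD, n = 3). For *Oasl1* edgeR gave a log2 fold change of 0.33 (standard error 0.14, FDR = 0.414) and did not pass the test, also without wild-type replicate 2 (0.40, FDR = 0.191). *Oas1a*, which makes the messenger, had 1.90, 6.18 and 6.06 FPKM in Ptpn6+/mev mice and 6.61, 10.6 and 7.22 FPKM in wild-type mice. The groups did not overlap, but Ptpn6+/mev replicate 1 lay well below the other 5, and the log2 fold change was -0.87 (FDR = 0.449). It was -0.50 without that mouse, -0.59 without wild-type replicate 2 and -0.22 without both. Of the *Oas1a* transcript, 47.6% of the 75-base stretches recur in other genes, chiefly *Oas1g*, whose FPKM was 3.59 in wild-type replicate 2 and between 0.25 and 0.97 in the other mice. *Oasl2* also had FPKM that did not overlap, from 4.02 to 5.27 in Ptpn6+/mev mice and from 5.43 to 9.62 in wild-type mice. However, its counts of 99, 171 and 164 against 134, 331 and 196 overlapped. The log2 fold change of *Oasl2*, -0.58, became -0.08 without wild-type replicate 2.

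ISG15 is a ubiquitin-like protein that is attached to other proteins during an interferon response, and USP18 removes it and also blunts the type I receptor. *Isg15* (chr4:156199424-156200818) had 8.86, 15.4 and 24.3 FPKM in Ptpn6+/mev replicates 1 to 3, and 20.7, 51.3 and 21.97 FPKM in wild-type replicates 1 to 3. Wild-type replicate 2 was the highest and Ptpn6+/mev replicate 1 the lowest, while Ptpn6+/mev replicate 3 was above the other wild-type mice. The fit put *Isg15* at a log2 fold change of -1.04 (standard error 0.46, FDR = 0.420), and -0.44 without wild-type replicate 2. *Usp18* repeated this order within each group at 1.81, 2.34 and 4.24 FPKM against 3.24, 7.89 and 4.37 FPKM, with a log2 fold change of -0.97 (FDR = 0.420), which became -0.48 without wild-type replicate 2.

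Among the antiviral effectors, tetherin (*Bst2*), which holds budding virus at the cell surface, had the lowest p. *Bst2* (chr8:71534255-71537456) had 43.1, 50.3 and 55.9 FPKM in Ptpn6+/mev mice and 57.5, 77.8 and 57.3 FPKM in wild-type mice, and the groups did not overlap. *Bst2* thus had a log2 fold change of -0.44 (standard error 0.17, FDR = 0.347), and -0.25 without wild-type replicate 2. *Ly6e*, which encodes a GPI-anchored surface protein, was the most abundant of the 45 genes, at 687, 682 and 843 FPKM in Ptpn6+/mev mice and 639, 806 and 627 FPKM in wild-type mice. The groups overlapped, and the log2 fold change of 0.03 (FDR = 0.965) went from -0.07 to 0.21 across the fits that left out 1 library. *Cmpk2* varied least, between 3.79 and 3.91 FPKM in Ptpn6+/mev mice and between 4.08 and 4.77 FPKM in wild-type mice (log2 fold change -0.28, FDR = 0.519). Viperin (*Rsad2*), encoded next to *Cmpk2* on chromosome 12, had 5.49, 4.91 and 5.73 FPKM in Ptpn6+/mev mice and 6.06, 3.38 and 4.65 FPKM in wild-type mice, and was one of 2 genes that were lowest in wild-type replicate 2. The dynamin-like GTPases were barely detected. *Mx1*, with 0, 7 and 11 counts in Ptpn6+/mev mice and 10, 11 and 4 in wild-type mice, was below the filter, and *Mx2* ranged from 0.20 to 0.83 FPKM.

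GBP and IRG proteins are interferon-inducible GTPases that coat vacuoles holding pathogens. Of the 9 genes, 8 had a log2 fold change below 0, 5 had groups that did not overlap and 4 had an unadjusted p under 0.05 (*Gbp6*, *Gbp7*, *Igtp* and *Gbp2*), against 6.38% of all tested genes lower without overlap and 6.71% lower at that p. *Gbp6* (chr5:105270702-105293698) had the largest difference of the 44 genes, with 0.58, 0.49 and 0.39 FPKM in Ptpn6+/mev mice and 1.95, 2.50 and 0.83 FPKM in wild-type mice. Each wild-type mouse was above every Ptpn6+/mev mouse, at counts of 11 to 72 per library. That left *Gbp6* with a log2 fold change of -1.92 (95% interval -2.99 to -0.85, FDR = 0.150 from edgeR's quasi-likelihood test), and -1.53 without wild-type replicate 2 (FDR = 0.112). It was called by the edgeR exact test (FDR = 0.00885) and DESeq2 (FDR = 0.0121). However, 86.0% of the 75-base stretches of *Gbp6* also occur in *Gm43302*, which had 3.3, 3.23 and 15.1 counts in Ptpn6+/mev mice and 9.93, 24.3 and 7.77 in wild-type mice, so the level of *Gbp6* is uncertain.

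*Gbp7* (chr3:142530342-142550149) kept its difference without wild-type replicate 2. It had 1.61, 1.60 and 2.14 FPKM in Ptpn6+/mev mice and 3.23, 2.26 and 2.39 FPKM in wild-type mice. Wild-type replicate 1 was the highest, and the groups did not overlap. For *Gbp7* edgeR gave a log2 fold change of -0.69 (standard error 0.19, FDR = 0.199) and -0.70 (FDR = 0.124) without wild-type replicate 2, and 11.4% of its 75-base stretches are shared with other genes. *Gbp2* had 3.74, 4.93 and 5.37 FPKM against 6.39, 8.08 and 5.54 FPKM, also without overlap (log2 fold change -0.59, FDR = 0.326, or -0.39 without wild-type replicate 2). *Gbp3* depended on the unit: its FPKM was 2.14, 2.28 and 3.43 in Ptpn6+/mev mice and 4.71, 5.12 and 5.61 in wild-type mice, whereas its counts of 59, 58 and 99 against 94, 129 and 99 overlapped and gave a log2 fold change of -0.55 (FDR = 0.475), or -0.32 without wild-type replicate 2. *Gbp5*, at 0.60, 0.98 and 0.97 FPKM in Ptpn6+/mev mice and 1.15, 0.24 and 0.61 FPKM in wild-type mice, was the other gene lowest in wild-type replicate 2, and its log2 fold change of 0.30 became -0.07 without that library.

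Of the IRG genes, *Irgm1* (chr11:48861968-48871683), a regulator of the other IRG proteins and of autophagy, was the most abundant. It had 15.6, 20.6 and 18.8 FPKM in Ptpn6+/mev replicates 1 to 3, and 20.1, 58.8 and 20.4 FPKM in wild-type replicates 1 to 3. All mice but wild-type replicate 2 lay in one narrow range. The fit put *Irgm1* at a log2 fold change of -0.95 (standard error 0.43, FDR = 0.429), and -0.18 without wild-type replicate 2. *Igtp* kept a difference beyond that mouse, with 4.92, 7.18 and 7.74 FPKM in Ptpn6+/mev mice and 9.80, 19.9 and 8.69 FPKM in wild-type mice. The groups did not overlap, and the log2 fold change was -1.05 (standard error 0.36, FDR = 0.295), or -0.53 (FDR = 0.213) without wild-type replicate 2. *Iigp1*, on chromosome 18, was low, from 0.42 to 0.59 FPKM in Ptpn6+/mev mice and at 0.69, 1.92 and 0.44 FPKM in wild-type mice.

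**Figure D3:**
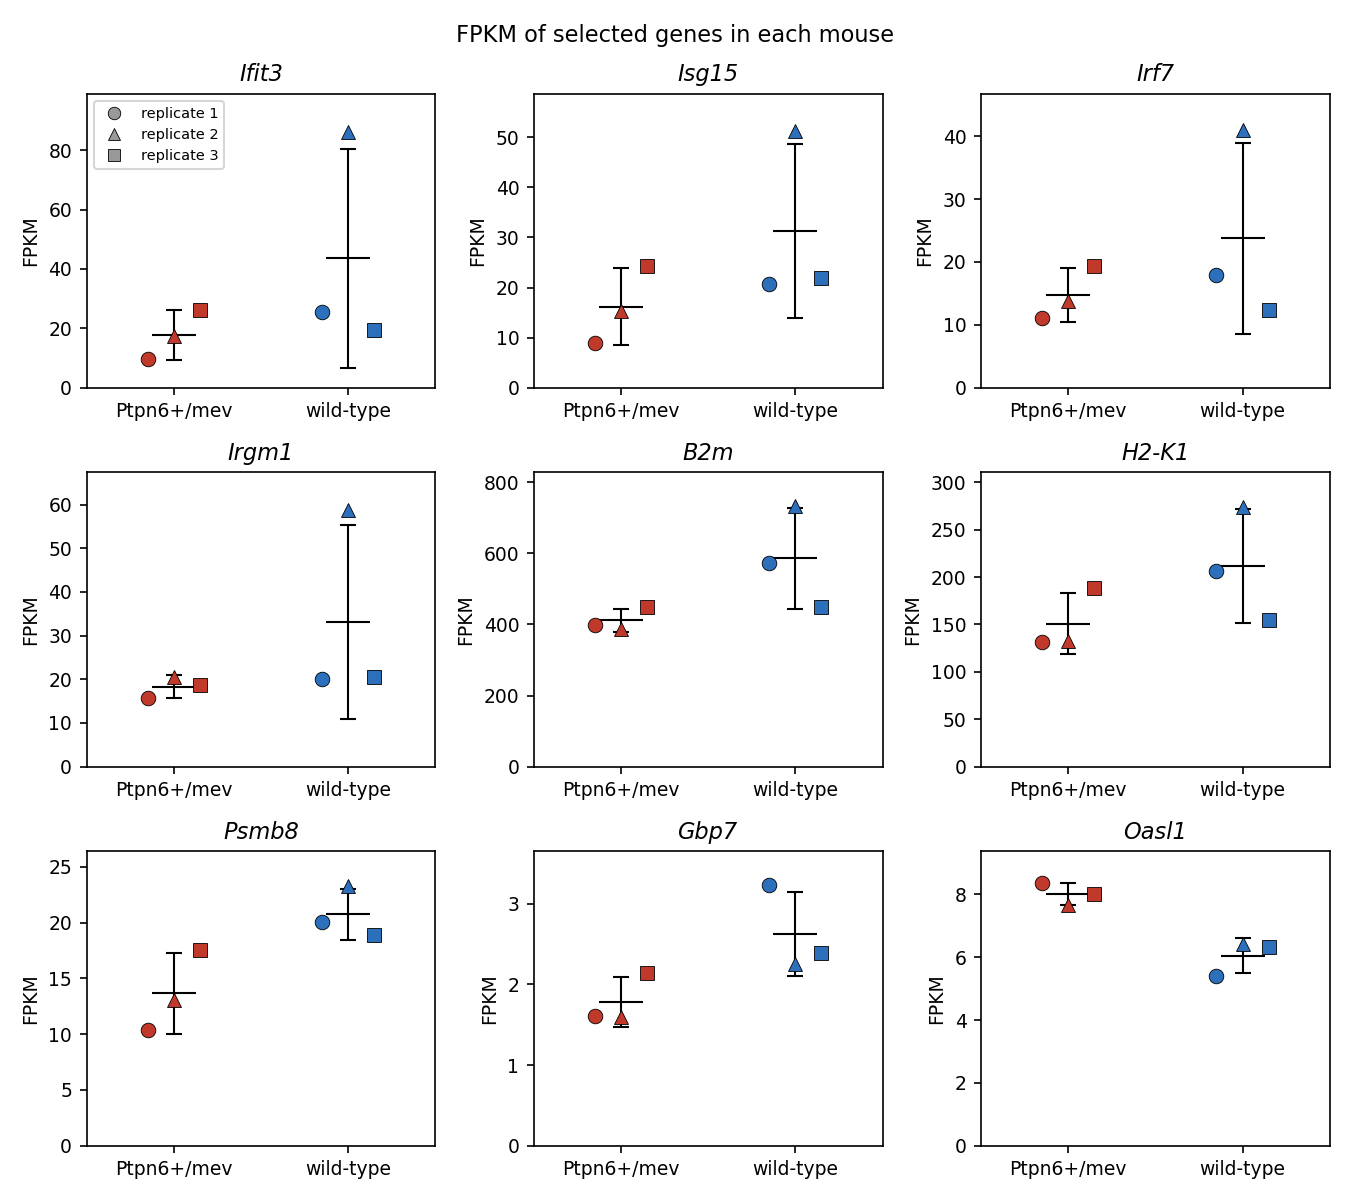
FPKM (vertical axis, from 0) of 9 genes in each of the 3 Ptpn6+/mev mice (red) and 3 wild-type mice (blue), with a bar at the group mean and whiskers of 1 SD. In *Ifit3*, *Isg15*, *Irf7* and *Irgm1* wild-type replicate 2 lies above the other mice, which overlap or nearly so, while *Psmb8*, *Gbp7* and *Oasl1* separate the groups.

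Of the class I antigen presentation genes, *B2m*, *H2-K1* and *H2-D1* were among the most abundant of the 45. The 6 genes of this role encode the immunoproteasome subunits PSMB8 and PSMB9, which cut peptides, the transporter TAP1, which moves them into the endoplasmic reticulum, the heavy chains H2-K1 and H2-D1, and their light chain beta-2-microglobulin (*B2m*). All 6 had a log2 fold change below 0, with and without wild-type replicate 2 (medians -0.54 and -0.31), and 4 had an unadjusted p under 0.05 (*B2m*, *H2-D1*, *Psmb8* and *H2-K1*), against 6.71% of all tested genes lower at that p. Each of the 6 was highest in wild-type replicate 2, as were 17.3% of all tested genes. Summed over the 6 genes, the level was 689, 693 and 839 FPKM in Ptpn6+/mev replicates 1 to 3, and 1022, 1300.3 and 799.9 FPKM in wild-type replicates 1 to 3, so that wild-type replicate 3 lay below Ptpn6+/mev replicate 3.

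*B2m* (chr2:122147686-122153083) had 398, 388 and 448.6 FPKM in Ptpn6+/mev mice and 573, 735 and 449.7 FPKM in wild-type mice. The groups did not overlap, although Ptpn6+/mev replicate 3 and wild-type replicate 3 were almost equal. *B2m* thus had a log2 fold change of -0.59 (standard error 0.19, FDR = 0.255), and -0.36 (FDR = 0.154) without wild-type replicate 2. *H2-D1* had 139, 147 and 172 FPKM in Ptpn6+/mev mice and 207, 248.6 and 164 FPKM in wild-type mice, and *H2-K1* had 132, 133 and 188 FPKM against 206, 274 and 155 FPKM. In both heavy chains Ptpn6+/mev replicate 3 was above wild-type replicate 3. Their log2 fold changes were -0.52 (FDR = 0.299) and -0.57 (FDR = 0.390), or -0.32 and -0.29 without wild-type replicate 2. Some reads of class I genes can be split between relatives, since 6.90% of the 75-base stretches of *H2-D1* recur elsewhere.

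*Psmb8* (chr17:34197721-34201454) had 10.4, 13.04 and 17.5 FPKM in Ptpn6+/mev mice and 20.05, 23.3 and 18.9 FPKM in wild-type mice, with no overlap. That left *Psmb8* with a log2 fold change of -0.58 (standard error 0.22, FDR = 0.342), and -0.48 (FDR = 0.295) without wild-type replicate 2. *Tap1* had 5.22, 7.26 and 7.78 FPKM against 8.55, 10.8 and 7.54 FPKM. *Psmb9*, which shares the promoter region with *Tap1*, had 4.45, 5.41 and 4.59 FPKM against 6.69, 8.67 and 4.48 FPKM. In both, wild-type replicate 3 fell within the Ptpn6+/mev range, and the log2 fold changes were -0.43 and -0.52, or -0.26 and -0.22 without wild-type replicate 2.

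The other 8 interferon-stimulated genes were each highest in wild-type replicate 2. *Dtx3l* (chr16:35926511-35939151), a ubiquitin ligase that works with PARP9 and is encoded beside it, had the lowest p. It had 1.92, 2.59 and 2.63 FPKM in Ptpn6+/mev mice and 3.40, 4.48 and 3.58 FPKM in wild-type mice, with no overlap. For *Dtx3l* edgeR gave a log2 fold change of -0.67 (standard error 0.23, FDR = 0.290), and -0.41 (FDR = 0.237) without wild-type replicate 2. *Parp9* itself overlapped, with 7.80, 8.09 and 9.42 FPKM against 7.76, 13.4 and 7.26 FPKM, and its log2 fold change of -0.26 became 0.05 without that library.

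*Ifi27*, which encodes a small hydrophobic protein of mitochondrial and nuclear membranes, was the most abundant of the 8, at 52.7, 61.5 and 81.3 FPKM in Ptpn6+/mev mice and 84.7, 171.7 and 61.9 FPKM in wild-type mice. The fit put *Ifi27* at a log2 fold change of -0.80 (FDR = 0.445), and -0.20 without wild-type replicate 2. *Ifi44* was the other gene of this role whose groups did not overlap, from 1.39 to 1.85 FPKM in Ptpn6+/mev mice and from 1.88 to 3.56 FPKM in wild-type mice. *Xaf1*, *Parp14*, *Trim30a* and *Ifi35* overlapped, with log2 fold changes of -0.83, -0.57, -0.65 and -0.08. Without wild-type replicate 2 these were -0.26, -0.31, 0.002 and 0.07.

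The rest of the pathway was read from 8 lists of 120 genes, of which 101 were tested. None was called by the quasi-likelihood test, 6 were called by DESeq2 and 5 by the edgeR exact test, which called 2.97% and 2.99% of all tested genes. At an unadjusted p under 0.05, 23 were lower and 1 was higher, against 6.71% and 5.53% of all tested genes, and the median log2 fold change was -0.21, or -0.16 without wild-type replicate 2. The interferons themselves were at the edge of detection. Of 10 ligand genes, 8 had no count in any library, *Ifng* had 0.15 FPKM in wild-type replicate 1 alone, and *Ifnk* had 0.11 FPKM in wild-type replicate 2 alone. Each of the 10 receptor and kinase genes was expressed, with a median log2 fold change of 0.08. *Jak1* lay between 43.65 and 57.1 FPKM in all 6 mice, and *Il10rb* between 31.6 and 44.5 FPKM. The only one with an unadjusted p under 0.05 was *Ifngr2*, a chain of the interferon-gamma receptor, at 39.1, 39.4 and 40.0 FPKM in Ptpn6+/mev mice and 30.1, 23.1 and 34.25 FPKM in wild-type mice (log2 fold change 0.37, FDR = 0.253).

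Of the 7 negative regulators, the inducible inhibitors *Socs1* and *Socs3* had groups that did not overlap and an unadjusted p under 0.05, against 6.38% and 6.71% of all tested genes in that direction. *Socs1* had 0.56, 0.95 and 0.91 FPKM in Ptpn6+/mev mice and 2.42, 1.19 and 1.12 FPKM in wild-type mice (log2 fold change -1.02, FDR = 0.387, or -0.61 without wild-type replicate 1). *Socs3* had 15.7, 26.1 and 27.0 FPKM against 30.7, 27.5 and 33.8 FPKM (log2 fold change -0.49, FDR = 0.353, or -0.28 without Ptpn6+/mev replicate 1). *Ptpn11*, which encodes the related phosphatase SHP-2, was apart in the other direction, at 41.31, 41.32 and 42.1 FPKM in Ptpn6+/mev mice and 38.6, 34.1 and 40.9 FPKM in wild-type mice (log2 fold change 0.07, FDR = 0.808). The 13 tested genes of nucleic acid sensing had a median log2 fold change of 0.01 and none with an unadjusted p under 0.05. The adaptor *Mavs* had 51.3, 45.9 and 52.5 FPKM against 48.05, 61.1 and 54.5 FPKM, and the factor *Irf3* stayed between 40.3 and 43.55 FPKM.

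Of 37 further interferon-stimulated genes tested, 27 were below 0, 8 of them with an unadjusted p under 0.05 (*Lgals3bp*, *Trim21*, *Parp10*, *Mov10*, *Eif2ak2*, *Znfx1*, *Uba7* and *Rtp4*), against 6.71% of all tested genes, and the median was -0.22. Of the 37, 13 were highest in wild-type replicate 2, against 17.3% of all tested genes. The most abundant, *Ifitm2* and *Ifitm3*, which encode proteins that block viral entry at membranes, were low in that mouse. *Ifitm2* had 141, 175 and 176 FPKM in Ptpn6+/mev mice and 195, 117 and 188 FPKM in wild-type mice. *Ifitm3* had 87.6, 134.5 and 154.9 FPKM in Ptpn6+/mev mice and 152.8, 95.7 and 164.7 FPKM in wild-type mice. *Lgals3bp*, a secreted galectin-binding protein, was highest there, with 42.9, 43.25 and 53.1 FPKM against 62.7, 109.9 and 52.9 FPKM.

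The interferon-gamma-inducible genes and antigen presentation genes outside the 45 had medians below 0 with and without wild-type replicate 2. Of the 10 interferon-gamma-inducible genes tested, 9 were below 0, and the median was -0.48, or -0.43 without that library and -0.25 with Ptpn6+/mev replicate 1 left out as well. *Irf8*, a transcription factor of the myeloid lineage, had 8.79, 12.9 and 11.5 FPKM in Ptpn6+/mev mice and 15.2, 14.6 and 18.1 FPKM in wild-type mice (log2 fold change -0.59, standard error 0.15, FDR = 0.174). *Cd274*, which encodes the checkpoint ligand PD-L1, had 0.96, 0.96 and 0.79 FPKM against 1.56, 1.13 and 1.47 FPKM (log2 fold change -0.68, FDR = 0.281). Both pairs of groups were apart. *Wars*, the most abundant of this list, stayed between 31.6 and 38.6 FPKM (log2 fold change 0.01).

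All 17 further class I pathway genes were below 0 (median -0.28), and 13 of the 17 remained so without wild-type replicate 2 (median -0.22). With both libraries left out, the median was -0.13. *H2-Q6*, a non-classical class I gene, had 5.38, 8.68 and 7.43 FPKM in Ptpn6+/mev mice and 16.5, 13.7 and 10.9 FPKM in wild-type mice. Wild-type replicate 1 was the highest, the groups did not overlap, and the log2 fold change was -0.999 (standard error 0.23, FDR = 0.138), or -0.93 (FDR = 0.0779) without wild-type replicate 2. *H2-Q7*, a close relative of *H2-Q6*, followed it with -0.93 (FDR = 0.208). Both had fractional counts, and the sequence they share was not measured, so their values need not be independent. *Nlrc5*, the transactivator of class I genes, had 0.57, 0.57 and 0.68 FPKM against 0.84, 0.97 and 0.86 FPKM (log2 fold change -0.68, FDR = 0.307), and *Tap2* had a log2 fold change of -0.37 (FDR = 0.287). The abundant chaperone *Calr* and proteasome activator *Psme2* overlapped. *Calr* lay between 285 and 374 FPKM in Ptpn6+/mev mice and between 301 and 407 FPKM in wild-type mice, *Psme2* between 74.7 and 102.8 FPKM and between 95.02 and 109.5 FPKM, and the log2 fold changes were -0.16 and -0.24. Across the fits that left out 1 library these went from -0.27 to -0.047 for *Calr* and from -0.32 to -0.11 for *Psme2*.

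Class II genes, which serve the antigen-presenting cells, had a median log2 fold change of -0.50 with all libraries and -0.51 without wild-type replicate 2, but -0.37 with both libraries left out. *H2-Ab1* had 23.2, 38.45 and 30.6 FPKM in Ptpn6+/mev mice and 45.3, 62.15 and 51.9 FPKM in wild-type mice. The groups did not overlap, and the log2 fold change was -0.87 (standard error 0.21, FDR = 0.149), or -0.70 (FDR = 0.0788) without wild-type replicate 2. The invariant chain *Cd74* had 44.8, 79.9 and 67.7 FPKM against 91.7, 103.1 and 99.7 FPKM (log2 fold change -0.68, FDR = 0.208). For 6 of the 7 class II genes the lowest mouse was Ptpn6+/mev replicate 1.

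**Figure D4:**
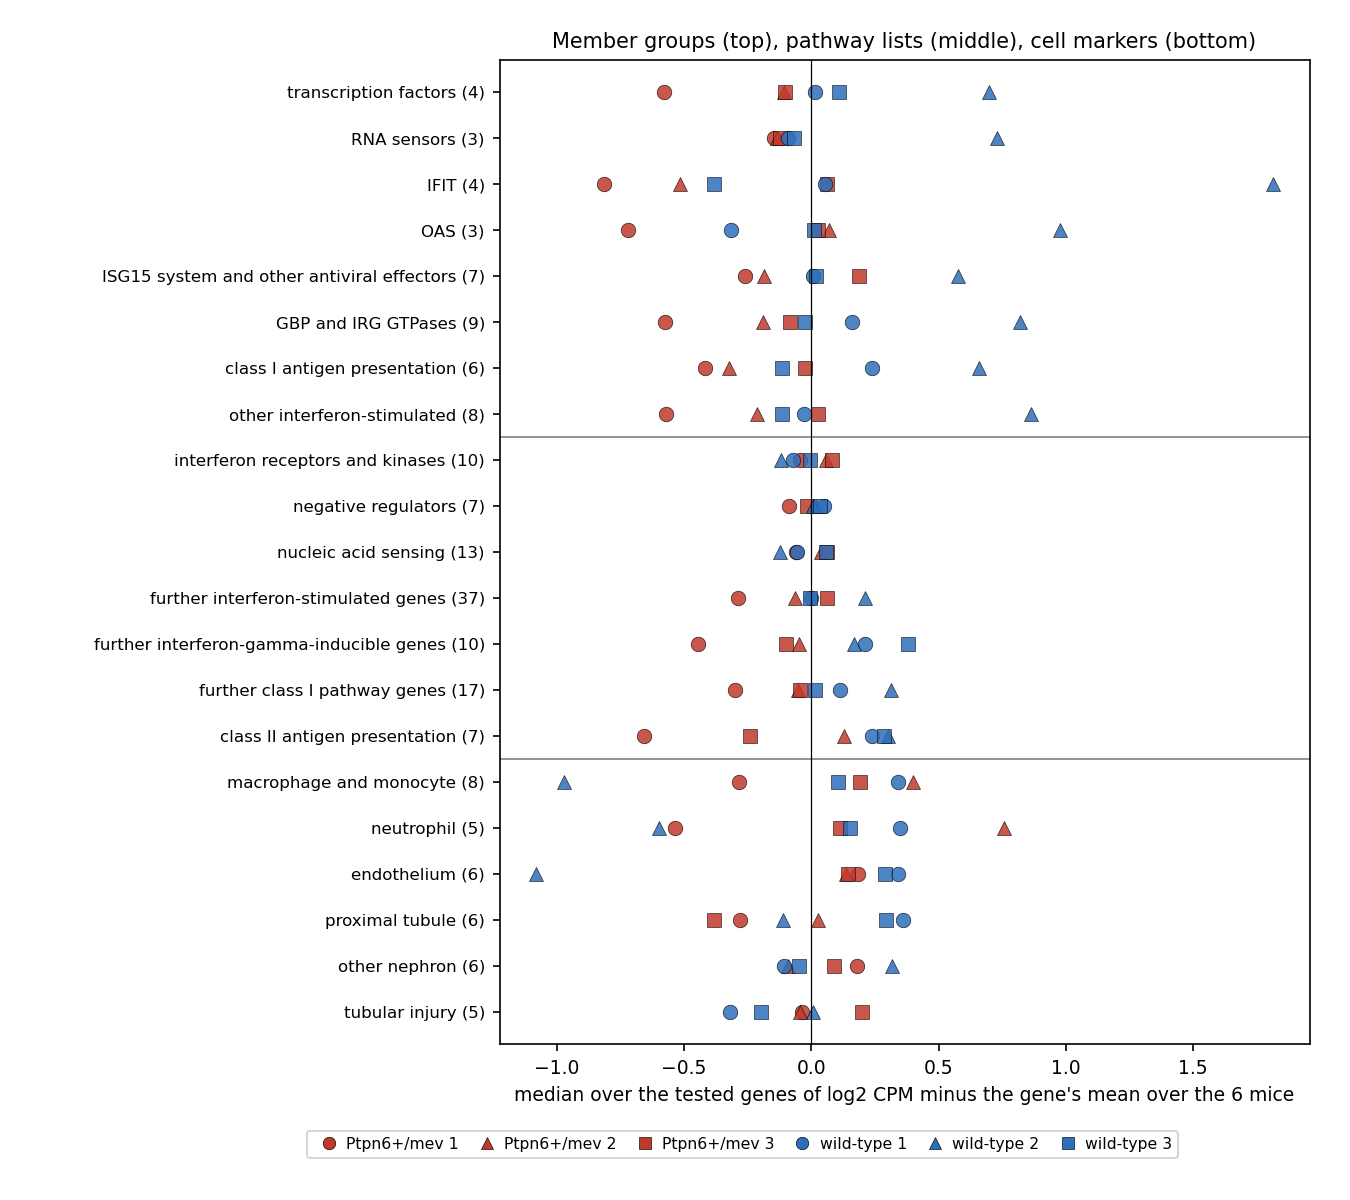
Median over the tested genes of each list (number in brackets) of log2 CPM minus the gene's mean over the 6 mice, one point per mouse, for the roles of the 45 genes (top), the other pathway lists (middle) and the cell markers (bottom), with lists of fewer than 3 tested genes left out. Wild-type replicate 2 (blue triangles) is at 1.81 in the IFIT role and at -0.97 and -1.08 in the macrophage and endothelial markers.

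Markers of the cells that could carry these genes moved differently. The 8 macrophage and monocyte markers, all tested, had summed levels of 109.5, 198.1 and 215 FPKM in the Ptpn6+/mev mice, against 178, 75.3 and 138.9 FPKM in the wild-type mice, each in the order of the replicates. *Lyz2*, a lysozyme, made up most of these sums, with 72.3, 145 and 166 FPKM against 129.8, 49.3 and 96.3 FPKM, and *Cd68* lay between 16.2 and 29.9 FPKM. The 6 endothelial markers summed to 161, 171 and 175 FPKM in Ptpn6+/mev mice and to 181, 81.1 and 167 FPKM in wild-type mice. *Egfl7* and *Pecam1* led them, and *Pecam1* was 13.02 FPKM in wild-type replicate 2 against 39.3 to 49.2 FPKM elsewhere. Wild-type replicate 2, the mouse highest in most of the 45 genes, was thus the lowest in both sums. *Adgre1* (F4/80) was 1.04 FPKM there against 2.49 to 3.71 FPKM elsewhere. The macrophage and monocyte markers were each lowest in that mouse, except *Ly6c2* and *Ccr2*. These were at 2.88 and 0.80 FPKM in wild-type replicate 2 and lowest in Ptpn6+/mev replicate 1, at 1.17 and 0.43 FPKM. The neutrophil markers, 5 of 6 tested, summed to between 24.8 and 58.1 FPKM in Ptpn6+/mev mice and between 26.3 and 45.4 FPKM in wild-type mice, with *S100a9* and *S100a8* the most abundant. Dendritic cell markers, 2 of 8 tested, summed to between 5.29 and 6.46 FPKM and between 3.11 and 6.78 FPKM. Wild-type replicate 2 was the lowest of the 6 mice in both tested ones, with *Zbtb46* at 1.57 FPKM against 3.02 to 3.35 FPKM elsewhere and *Itgax* at 0.58 FPKM against 1.20 to 2.25 FPKM. Markers of T and NK cells and of B cells, none of them tested, summed to between 0.57 and 2.92 FPKM and between 0.39 and 1.75 FPKM over the 6 mice, and each of these markers had a count in some library. *Ncr1* was at 0 in all mice but Ptpn6+/mev replicate 3, and *Ms4a1* in all but wild-type replicate 1. Ptpn6+/mev replicate 1, lowest in most of the 45 genes and in class II, was also the lowest of its group in macrophage and neutrophil markers.

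Markers of the nephron did not move together. The 6 proximal tubule markers summed to 398, 490.5 and 381 FPKM in Ptpn6+/mev mice and 629, 468.5 and 599 FPKM in wild-type mice, and 3 of them had an unadjusted p under 0.05 and a log2 fold change below 0, against 6.71% of all tested genes, while *Slc5a2* and *Slc5a12* were at -0.04 and 0.01. *Slc34a1*, a phosphate transporter, had 198, 256 and 193 FPKM against 305, 176 and 313 FPKM, and *Slc22a6*, an organic anion transporter, had 71.4, 99.0 and 70.4 FPKM against 180, 182.5 and 130.4 FPKM (log2 fold change -1.11, FDR = 0.077). None of the 6 was called with all libraries, and *Slc22a6* (FDR = 0.0274), *Lrp2* (FDR = 0.0354) and *Cubn* (FDR = 0.0465) were called lower without wild-type replicate 2, in a fit that called 1.8% of all genes. The 6 markers of other nephron segments had a median log2 fold change of -0.04, with 3 below 0 and 3 above, or 0.15 without wild-type replicate 2. The 5 injury markers had a median of 0.16, or 0.34 without wild-type replicate 2, and 2 of them were higher at an unadjusted p under 0.05 with all libraries and 3 without that one, against 5.53% and 8.36% of all genes. With all libraries, *Havcr1* (KIM-1) had 1513, 1565 and 1436 FPKM in Ptpn6+/mev mice and 1087, 1259 and 1262 FPKM in wild-type mice, with no overlap (log2 fold change 0.27, FDR = 0.325, or 0.18 without wild-type replicate 1). *Vcam1*, an adhesion molecule, was the other of the 2, at 13.3, 24.0 and 22.8 FPKM against 11.7, 5.91 and 11.4 FPKM, also with no overlap (log2 fold change 1.05, FDR = 0.188). *Krt20* was at 0.16 and was called higher without wild-type replicate 2 (0.63, FDR = 0.0287). *Lcn2*, with 1184, 1130 and 2269 FPKM against 1511, 2080 and 962 FPKM, overlapped. The part of cell composition and of tubular injury in the levels of the interferon and antigen presentation genes was not tested.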

How the data were processed

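RNA-seq was performed on poly-A mRNA from 6 kidneys, with read pairs from libraries that do not mark the strand. The authors aligned the reads to GRCm38.p5 (Ensembl release 90) with TopHat and Cufflinks, and the submitters' processing notes also list Bowtie2, TopHat2 2.0.3.12 and RSEM. The deposited table holds an estimated count and an FPKM value per gene and mouse, together with functional annotation. The estimated counts deposited by the authors were fractional for 1744 of 21367 genes and were rounded. Which tool made them is not given in the sources used here. The FPKM values deposited by the authors were used for levels and figures. They divide by a transcript length and so can differ from counts where isoforms change.

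Counts were compared with edgeR 4.0.16 in R 4.3.3 (TMM, filterByExpr, quasi-likelihood F-test, Benjamini-Hochberg over 13036 genes, FDR under 0.05). Differences are Ptpn6+/mev minus wild-type, and the FDR printed in the text is edgeR's unless another tool is named. Alternatives (15 planned, 1 added after the data were seen) included DESeq2 1.42.0 and limma 3.58.1 on log2(FPKM + 1) and log2(FPKM + 0.1). The edgeR and DESeq2 tests were also run on simulated counts whose levels and spread were taken from these data, with results not given here. Replicates of one group differed by more than sampling noise (chi-square per degree of freedom 6.27 to 43.3). Each library came from 1 mouse, so p-values measure the spread between 3 mice of each genotype. Log2 CPM used a prior count of 2. Counting error limits precision for genes near 0.

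The 45 genes, the roles and the lists were chosen with earlier results of these data known. In each role the gene with the lowest p, the most abundant gene and any gene below the filter are named, and of each list with tested genes the most abundant. Other names were chosen after their values were seen. Genes that share sequence were found as 75-base stretches of GENCODE M21 transcripts, which also gave positions on GRCm38. Promoter windows came from RefSeq (GRCm38.p6). Figures used Python 3.11.15 and matplotlib 3.10.9. Values of 1 gene of the pathway lists are not reported here.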

Additional observations from a re-analysis of the deposited data

How the results depend on the processing

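The median log2 fold change of the 44 genes stayed below 0 in each of the 15 alternatives and in the one added after the data were seen. It ranged from -0.75 to -0.26 over the fits that left out 1 library and was -0.13 without wild-type replicate 2 and Ptpn6+/mev replicate 1 together. Across single genes, 673 fits kept the direction and the side of the threshold, 26 fits of 13 genes changed direction, and 3 fits of *Gbp6* passed the threshold. Genes called over the whole table numbered 18, and 387 with DESeq2, 390 with the exact test, 52 without a filter on low counts, 1 to 237 with 1 library left out and 345 without both libraries. Of the 44 genes, 1 was called with DESeq2, with the exact test and without wild-type replicate 3 (0 to 1 with 1 library left out), and 0 elsewhere. The 14 lower at an unadjusted p under 0.05 became 22 with the exact test, 3 to 25 with 1 library left out and 5 without both. Of these alternatives, the share of all tested genes at that p was computed only for the fit without wild-type replicate 2. The pathway lists had 6 calls with DESeq2 and 5 with the exact test. *Ifit2* changed direction with limma (0.28 and 0.37), with the replicate block (0.079), and without both libraries (0.37), and ranged from -0.25 to 0.51 with 1 library left out. Without both libraries the log2 fold change was 0.15 for *Ifi35*, 0.22 for *Dhx58*, -0.047 for *Rsad2*, 0.093 for *Parp9*, 0.11 for *Irf7*, 0.031 for *Ifih1*, 0.12 for *Oasl2*, 0.16 for *Trim30a*, 0.023 for *Xaf1* and 0.014 for *Ifi47*, and *Ly6e*, which kept its direction, was at 0.26. With 1 library left out, the ranges that crossed 0 were -0.75 to 0.048 for *Ifih1*, -0.51 to 0.017 for *Dhx58*, -0.032 to 0.34 for *Rsad2*, -0.073 to 0.21 for *Ly6e*, -0.074 to 0.91 for *Gbp5*, -0.18 to 0.07 for *Ifi35*, -0.42 to 0.049 for *Parp9* and -0.92 to 0.0017 for *Trim30a*, while those of the other genes just named were -1.09 to -0.065 for *Irf7*, -0.84 to -0.078 for *Oasl2*, -1.25 to -0.26 for *Xaf1* and -0.67 to -0.14 for *Ifi47*. The cause of these changes was not tested. The replicate number as a block gave 1 call over the whole table, 0 of the 44 genes, and a median of -0.55. Same-numbered libraries had correlations of -0.14, -0.18 and -0.13 between their deviations from the group means, and no library correlated best with its own number. With so few libraries per group, these correlations cannot decide whether the numbers pair the mice, and the main fit did not pair them. Depth limits only the lowest genes, such as *Mx1* with at most 11 counts in a library and *Gbp6* with 11 to 72.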
